A study of Mus musculus with 4 samples.

Results

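Collagen genes other than those of type I were examined for RNA polymerase II (Pol II) peaks in mouse osteoblasts. The members are the protein-coding genes of the RefSeq GRCm38.p6 table whose symbols read Col, a number, a and a number, without Col1a1 and Col1a2. They number 42 of 21883 protein-coding genes on assembled chromosomes. All 42 could be placed in a class by the structure of their product: 9 fibrillar, 6 basement membrane (type IV) and 27 other collagens.

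Pol II ChIP-seq, which sequences the chromatin recovered with an antibody against the polymerase, gave 1 peak list without and 1 with OSS_128167, an inhibitor of the deacylase SIRT6. Both lists come from primary osteoblasts labelled young, grown out of bone tissue as marrow stromal cells and kept for 3 days in osteogenic medium. The title of the untreated sample names WT cells, that of the other only the inhibitor, and the treatment field names OSS_128167 for every sample, so the untreated group rests on its title and on nothing else. The dose and duration of the inhibitor are not in the labels. How many animals the cells came from is not given in the labels, and with 1 library per condition nothing was tested between conditions. The OSS_128167 list held 40748 peaks and the untreated list 1694. Of the osteoblast markers Runx2, Sp7 and Phex had a peak in the OSS_128167 list, while Alpl, Bglap, Ibsp, Spp1 and Dmp1 had none. A peak there was found at 1 of 7 chondrocyte, 3 of 5 endothelial, 2 of 6 macrophage and osteoclast (Cd68 and Adgre1), 0 of 4 adipocyte and 1 of 4 blood cell markers, beside 37.8% of all protein-coding genes. Cd68 (1.96 kb) was covered over 81.6% (lowest FDR 5.34e-05), more than any osteoblast marker. Of those, Sp7 (10.4 kb) was the most covered at 8.48%, followed by Runx2 (319 kb) at 8.40%. Covered shares of genes so different in length are not like for like. The part of other cell types in the results was not tested. Sirt6 had no peak in either list. In bulk chromatin, fewer cells of a type and less Pol II per cell cannot be told apart.

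Collagen chains wind around each other as a triple helix of Gly-X-Y repeats. Fibrillar collagens have long helices that pack into fibrils, and types III and V co-assemble with type I. Type IV forms the sheet-like network of basement membranes. The remaining classes decorate fibrils (the fibril-associated collagens, or FACITs), form beaded filaments (type VI), build short-chain networks (types VIII and X) or span the cell membrane. In bone, type I makes up most of the matrix, type V helps to set fibril diameter, and types II, IX, X and XI belong to cartilage.

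A Pol II peak overlapped few promoter windows of collagen genes, and few of all genes. RefSeq promoter windows, from 250 bases before to 50 after a gene start on GRCm38.p6, were given for 34 of the 42 members, as 37 windows. A listed OSS_128167 peak overlapped 2 of the 37 (5.41%), beside 2.02% of all 32851 windows of the table. With an FDR (the deposited false discovery rate of each peak) of at most 0.05 it was 1 window (2.70%), that of Col20a1, beside 1.01% of all. These were the windows of Col3a1 (chr1:45311288-45311587, plus strand) and Col20a1 (chr2:180986285-180986584, plus strand), which are printed for that reason. The Col20a1 window lies inside the interval that the gene table gives for Col20a1. The peak over this window ended at 180986480, before the gene start. At Col3a1 the peak lay over the gene start itself (FDR 0.155). The windows of Col5a1 (chr2:27886175-27886474, plus strand), whose nearest peak lay 397 bp away, and of the divergent pair of type IV genes Col4a1 (chr8:11312777-11313076, minus strand) and Col4a2 (chr8:11312555-11312854, plus strand) are set beside them as windows without a peak. Capitals mark matches, on either strand, to 4 short motifs. The first is the TATA box, searched as TATAAA. The second is searched as CCAAT and belongs to the promoters of many housekeeping and matrix genes. The GC box, a site of Sp-family factors, is searched as GGGCGG, and the motif of some Kruppel-like factors as CACCC. Neighbouring matches of the last pair can share a base.
Col3a1: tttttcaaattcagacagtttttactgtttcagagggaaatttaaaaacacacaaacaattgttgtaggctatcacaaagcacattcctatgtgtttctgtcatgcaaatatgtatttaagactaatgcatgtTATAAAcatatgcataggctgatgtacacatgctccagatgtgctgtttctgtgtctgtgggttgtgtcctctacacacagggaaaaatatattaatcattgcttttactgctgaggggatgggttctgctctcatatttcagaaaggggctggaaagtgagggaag
Col20a1: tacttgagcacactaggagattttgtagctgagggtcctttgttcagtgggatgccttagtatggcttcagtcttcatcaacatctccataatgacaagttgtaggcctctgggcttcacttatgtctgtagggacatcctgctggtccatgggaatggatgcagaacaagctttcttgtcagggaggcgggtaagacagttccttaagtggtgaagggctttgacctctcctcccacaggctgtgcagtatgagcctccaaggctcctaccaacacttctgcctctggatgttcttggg
Col5a1: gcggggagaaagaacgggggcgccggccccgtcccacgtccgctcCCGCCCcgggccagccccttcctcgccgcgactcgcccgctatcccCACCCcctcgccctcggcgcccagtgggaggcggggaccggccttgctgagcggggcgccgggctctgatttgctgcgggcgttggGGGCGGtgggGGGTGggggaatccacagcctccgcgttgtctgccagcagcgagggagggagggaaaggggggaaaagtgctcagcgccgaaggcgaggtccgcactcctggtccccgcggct
Col4a1: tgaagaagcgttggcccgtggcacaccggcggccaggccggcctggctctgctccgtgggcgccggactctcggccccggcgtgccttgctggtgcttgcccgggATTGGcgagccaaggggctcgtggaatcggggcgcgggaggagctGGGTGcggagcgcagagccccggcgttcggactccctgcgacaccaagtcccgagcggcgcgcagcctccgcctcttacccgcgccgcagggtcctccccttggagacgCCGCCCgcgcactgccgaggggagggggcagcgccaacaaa
Col4a2: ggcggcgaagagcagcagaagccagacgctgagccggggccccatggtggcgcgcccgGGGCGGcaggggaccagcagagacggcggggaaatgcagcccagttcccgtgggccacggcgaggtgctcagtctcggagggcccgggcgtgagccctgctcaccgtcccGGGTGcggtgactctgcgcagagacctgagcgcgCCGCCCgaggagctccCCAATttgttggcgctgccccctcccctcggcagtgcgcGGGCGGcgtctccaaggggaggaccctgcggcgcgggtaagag
Col3a1 held a single TATAAA and none of the other motifs, in a window of 37.7% G and C. The match lies near the middle of the window, not close to the gene start, and its action as a TATA box was not tested. The Col20a1 window held none of the 4. The windows of Col5a1, Col4a1 and Col4a2 were 75.0%, 74.0% and 73.7% G and C, and each held GGGCGG and CACCC matches. Those of Col4a1 and Col4a2 also held 1 CCAAT match each. The Col4a1 and Col4a2 windows overlap by 78 bases, in which the sequences are reverse complements of each other. Over the 37 member windows TATAAA matched 5 (13.5%, beside 13.6% of all windows) and CCAAT 12 (32.4%, beside 37.4%). GGGCGG matched 22 (59.5%, beside 35.7%) and CACCC 28 (75.7%, beside 57.5%). A match is a description of the letters in these windows, not of a bound site.

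In the OSS_128167 list Pol II peaks gathered on a few collagen genes, with 92 of 162 on Col3a1, Col20a1, Col6a1, Col12a1, Col5a2, Col8a2, Col5a1, Col6a2 and Col6a3, the 9 most covered members in that order. Of the 42 members 36 had a peak inside or within 1000 bp (85.7%, exact 95% interval 71.5 to 94.6), beside 37.8% of protein-coding genes. Collagen genes are long, with a median of 117.5 kb against 17.2 kb, and long genes hold listed peaks more often. In the 100 to 200 kb range 17 of 18 members had a peak, beside 75.9% of the 1439 protein-coding genes of that length. In the 20 to 50 kb range 9 of 10 members had one, beside 42.0% of 5094 genes, and in the 50 to 100 kb range 2 of 3, beside 61.0% of 2516. Of members of at least 200 kb 7 of 8 (87.5%) had one, a lower share than the 93.7% of 989 genes. Below 20 kb 1 of 3 members had one, beside 21.7%. With peaks at an FDR of at most 0.05, 15 members had one (35.7%, 21.6 to 52.0), beside 11.5% of all protein-coding genes and 20.2% of those of at least 50 kb. Matched for length, these were 6 of 18 members of 100 to 200 kb, beside 18.8%, and 2 of 8 of at least 200 kb, beside 40.7%. From 20 to 50 kb they were 5 of 10, beside 10.8%. At an FDR of at most 1e-05 there were 3 members (7.14%), Col3a1, Col20a1 and Col8a2, beside 1.4% of protein-coding genes. Density exceeded 2 times that of the gene's chromosome in 11 members (26.2%), beside 20.6%.

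The share of a gene covered by peaks separated the leading members from the rest. Coverage reached at least 10% in Col3a1 (14.2%) and Col20a1 (11.98%), that is 2 of 42, beside 3.06% of protein-coding genes. It lay between 2.62% and 7.08% in Col6a1, Col12a1, Col5a2, Col8a2, Col5a1, Col6a2 and Col6a3. All other members were below 1%, the highest being Col9a3 at 0.938%. The median over the 42 was 0.461%, beside 0% over all protein-coding genes and 0.334% over the 4944 of at least 50 kb. The 9 members above 1% were 21.4% of the 42 (10.3 to 36.8). The share was 17.5% of all protein-coding genes and 11.99% of those of at least 50 kb, and the interval includes both. These 9 members held 92 of the 162 peaks and 27 of the 34 with an FDR of at most 0.05. Their density was 0.143 peaks per kb of gene and flanks, against 0.0145 in the other 33 members and 0.0150 over all assembled chromosomes. The 33 are what remained once the most covered members were set apart, while the chromosome value leaves no gene out. These values are therefore not like for like. Pooled over all protein-coding genes the density was 0.0191. This split was made from the coverage itself and is a description. The type I genes, for reference, were covered over 98.2% (Col1a1) and 97.4% (Col1a2).

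**Figure D1:**
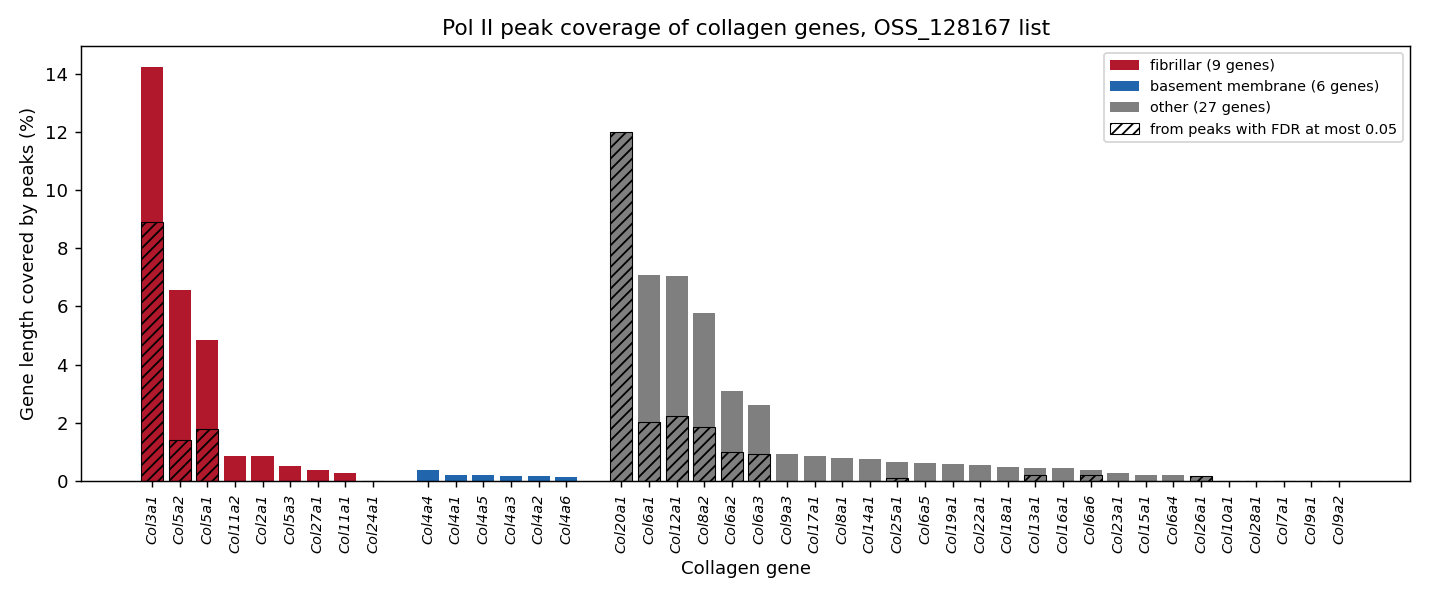
Percent of each collagen gene covered by OSS_128167 peaks (vertical axis) for the 42 genes (horizontal axis), coloured by class. Hatched bars show the part from peaks with an FDR of at most 0.05. Col3a1 (14.2%) and Col20a1 (11.98%) stand highest, and each of the 6 basement membrane genes is at or below 0.390%.

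**Figure D2:**
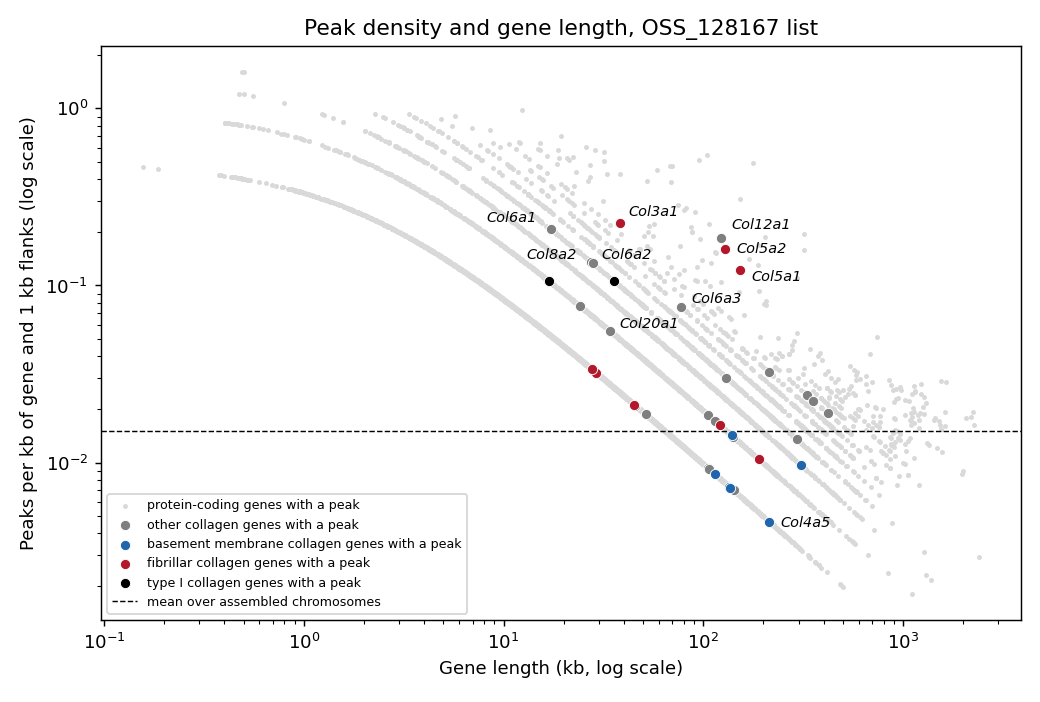
Peaks per kb against gene length, both on log axes, for genes with an OSS_128167 peak, with 1 point per gene and collagen genes coloured by class. The dashed line is the mean over assembled chromosomes (0.0150 per kb). Col3a1, Col12a1, Col5a2 and Col5a1 lie far above the line, while Col4a5 (0.00463 per kb) lies below it.

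Median coverage and pooled density were highest for fibrillar and lowest for basement membrane genes, while the counts of members with a peak did not follow that order. Median coverage was 0.858% for the 9 fibrillar, 0.181% for the 6 basement membrane and 0.557% for the 27 other members. Pooled over each class, density was 0.0554, 0.00850 and 0.0285 peaks per kb. Peaks with an FDR of at most 0.05 numbered 13 of 56 at fibrillar, 0 of 9 at basement membrane and 21 of 97 at other members. Members with any peak were 8 of 9 fibrillar, 6 of 6 basement membrane and 22 of 27 other genes. Members with a peak at an FDR of at most 0.05 were 3 of 9 (33.3%, 7.49 to 70.1), 0 of 6 (0%, 0 to 45.9) and 12 of 27 (44.4%, 25.5 to 64.7). These intervals are wide and overlap, with classes of 6 to 27 genes in 1 library. A difference between the class shares was not tested. With only peaks at that FDR, the median coverage of each class was 0%. Within the fibrillar class most of the peaks lay on a few genes, and of the 97 peaks of the other class 23 lay on Col12a1. In both of these classes the spread inside the class was wider than the gap between class medians. Fibrillar coverage ran from 0% (Col24a1) to 14.2%, and that of the other class from 0% to 11.98%.

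**Figure D3:**
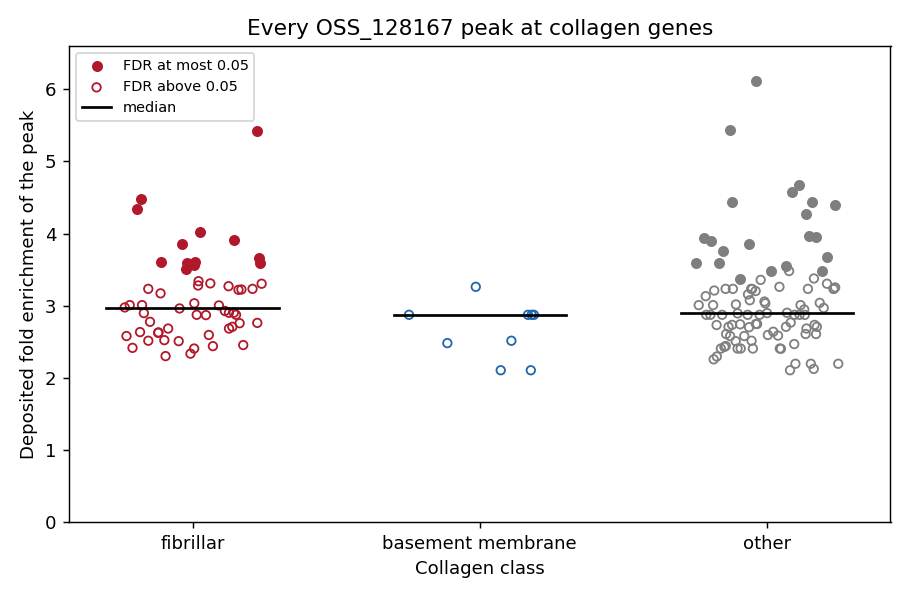
Deposited fold enrichment (vertical axis) of each OSS_128167 peak at the collagen genes, by class, with filled points for an FDR of at most 0.05 and a line at the median. The 9 basement membrane peaks are all open points between 2.11 and 3.26, while fibrillar peaks reach 5.42 and others 6.11.

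Among the fibrillar genes, peaks were concentrated on Col3a1, Col5a1 and Col5a2, which encode the chains of type III and the common chains of type V. These 3 held 49 of the 56 fibrillar peaks and all 13 with an FDR of at most 0.05. Col3a1 (chromosome 1, 45311538 to 45349706, 38.2 kb) had 9 peaks, 0.224 per kb, which is 13.1 times the density of chromosome 1. One of 258 bp lay over the gene start (fold 3.03, FDR 0.155). The strongest lay 8.12 to 8.55 kb into the gene (fold 5.42, FDR 4.01e-07), next to a peak of 2111 bp from 5.31 to 7.42 kb (fold 4.47, FDR 6.99e-05). Another peak with an FDR of 0.00126 lay 36.1 kb in, near the 3′ end. Of the 6242 protein-coding genes at least as long as Col3a1, 13 were covered over a larger share. No peak of the untreated list lay in or near Col3a1.

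Col5a1 and Col5a2, whose chains assemble in the same type V trimer, carried similar numbers of peaks along genes of similar length. Col5a1 (chromosome 2, 27886381 to 28039510, 153 kb) had 19 peaks (0.122 per kb, coverage 4.83%), and Col5a2 (chromosome 1, 45374331 to 45503282, 129 kb) had 21 (0.160 per kb, 6.56%). The strongest Col5a1 peak lay 1.04 to 2.56 kb inside the 5′ boundary and was 1519 bp long (fold 4.35, FDR 3.86e-04). A stretch of 52.2 kb without a peak followed, from 8.71 to 60.9 kb, and the remaining 16 peaks lay beyond it. In Col5a2 peaks were spread over the gene, with 8 of the 21 in the last 20 kb before the boundary of higher coordinate. The highest fold among Col5a2 peaks was 3.91, with an FDR of 0.00520. Only 5 protein-coding genes at least as long as Col5a2, and 8 at least as long as Col5a1, were covered over a larger share. Col5a3, which encodes the third type V chain, had 1 peak with an FDR of 0.377.

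The cartilage-type and minor fibrillar genes held few peaks. Col2a1, the main collagen of cartilage, had 1 peak (fold 3.23, FDR 0.159). Col11a1 and Col11a2, its partners in cartilage fibrils, had 2 (lowest FDR 0.0897) and 1 (FDR 0.676). Col27a1 had 2 peaks in 121 kb and Col24a1 none in 260 kb. None of these peaks had an FDR of at most 0.05. Densities ran from 0 in Col24a1 to 0.0336 per kb in Col11a2, at most 1.80 times that of their own chromosomes. Of the chondrocyte markers only Sox9 had a peak, and Acan, Comp, Matn1, Matn3, Hapln1 and Snorc had none. Sox9 (5.55 kb) had 3 peaks, with a coverage of 12.8% and a lowest FDR of 0.00116.

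**Figure D4:**
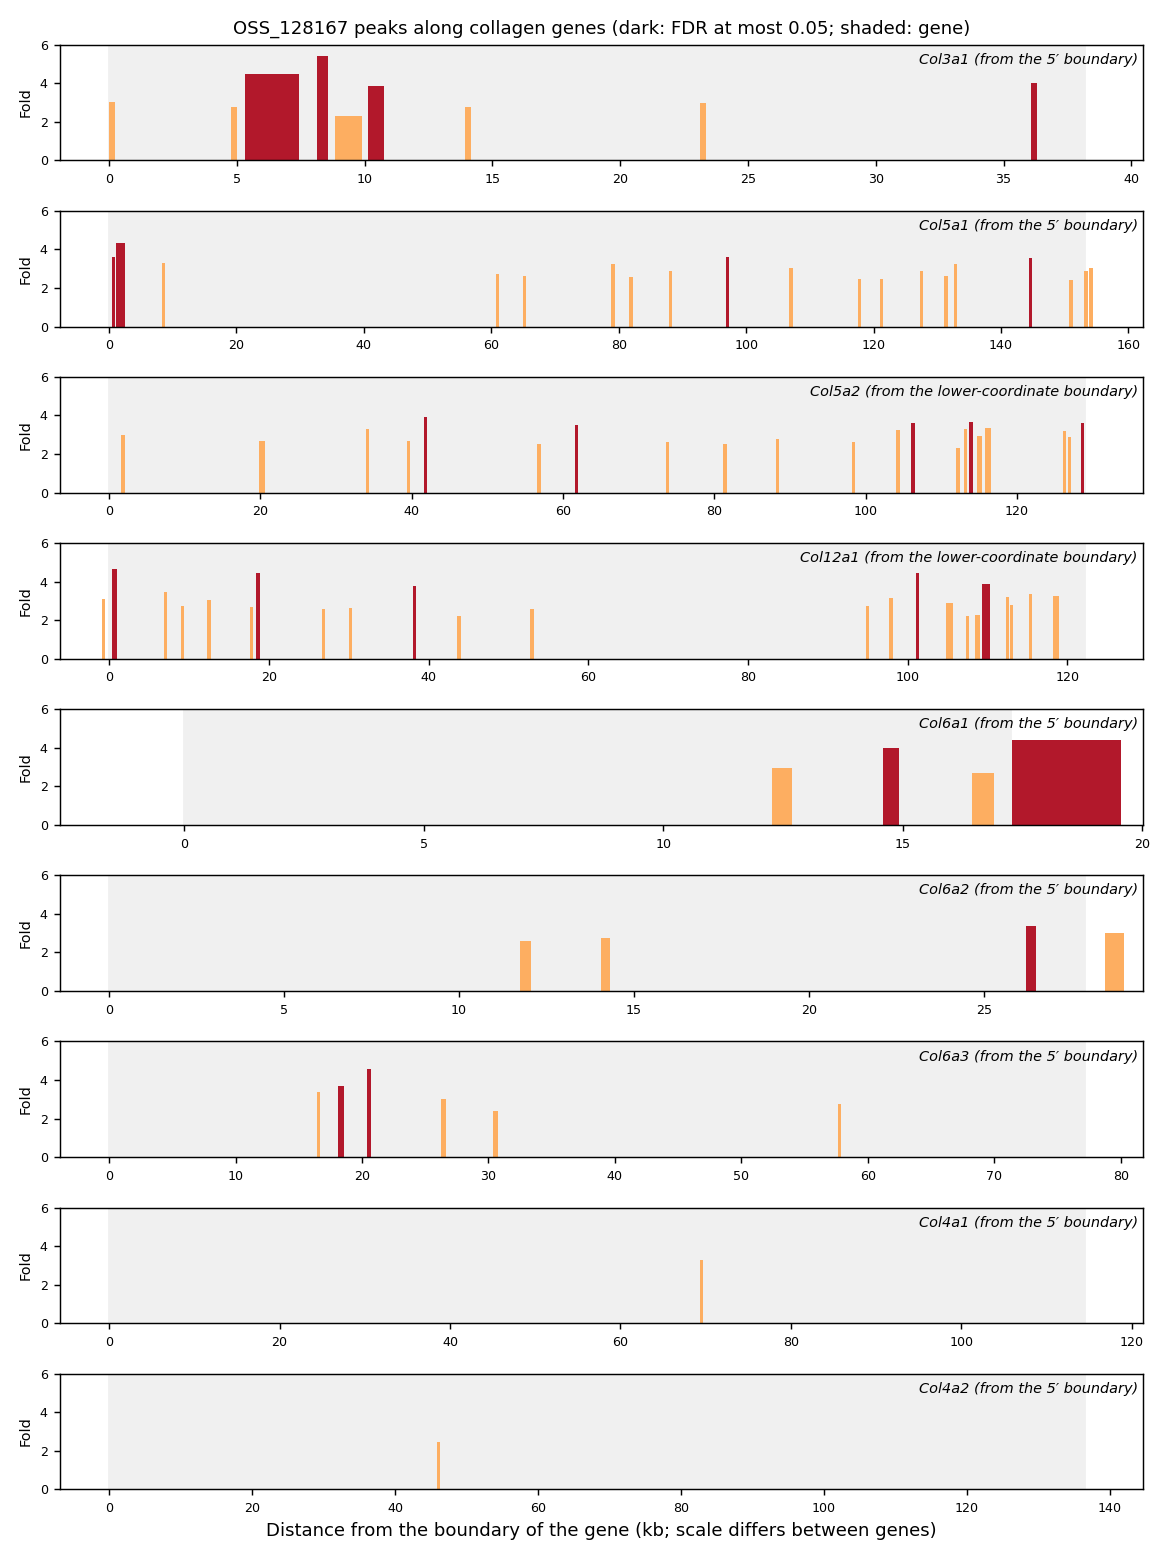
OSS_128167 peaks along 9 collagen genes, with distance in kb from the 5′ boundary, or from the lower-coordinate boundary for Col5a2 and Col12a1 (horizontal axis, scaled to each gene), and deposited fold (vertical axis). Dark bars have an FDR of at most 0.05 and grey shading marks the gene. Col3a1 peaks group between 4.76 and 10.8 kb, Col6a1 peaks at the 3′ end, and Col4a1 and Col4a2 have 1 peak each.

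Basement membrane genes carried scattered, weak peaks only. Col4a1 and Col4a2, the main chains of type IV in most tissues, share a divergent promoter on chromosome 8. Each had 1 peak of 226 bp, the shortest length in the list. That of Col4a1 lay 69.4 kb from its 5′ boundary (fold 3.26, FDR 0.109) and that of Col4a2 46.0 kb from its own (fold 2.48, FDR 0.617). Their densities of 0.00859 and 0.00722 per kb were 0.445 and 0.375 times that of chromosome 8. Col4a3 and Col4a4, which encode chains of the kidney glomerular network, had 1 and 2 peaks, and Col4a5 and Col4a6 on the X chromosome 1 and 3. Col4a4 (chromosome 1, 82448419 to 82587034, 139 kb) had the highest coverage of the class, 0.390%, and the highest density, 0.0142 per kb. The X chromosome had 0.00330 peaks per kb, so Col4a6 (141165403 to 141474095, 309 kb) stood at 2.93 times its chromosome with 0.00966 per kb. The single gene-end peak of the class, at Col4a6, also lay within 1000 bp of Atg4a. Across the 6 genes, which total 1050 kb, no peak had an FDR of at most 0.05, and the deposited pileup, the height of stacked fragments, was between 6 and 9. The markers of endothelial cells, which make basement membranes, held 1 peak each at Kdr, Pecam1 and Tek and none at Cdh5 and Emcn, and no such peak had an FDR of at most 0.05.

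Among the fibril-associated collagens, Col12a1 held the most peaks of any member. Col12a1 (chromosome 9, 79598987 to 79721141, 122 kb) encodes the chain of type XII, which binds type I fibrils. It had 23 peaks (0.185 per kb, coverage 7.03%), of which 5 had an FDR of at most 0.05. The strongest lay 0.311 to 1.02 kb inside the lower-coordinate boundary (fold 4.67, FDR 4.06e-04). Of these peaks 12 lay on the lower-coordinate side and 11 on the other side of a stretch of 41.8 kb without a peak. Of 1883 protein-coding genes at least as long, 5 were covered over a larger share. Col14a1, whose product resembles type XII, (chromosome 15, 55307644 to 55520803) had 7 peaks in 213 kb and a coverage of 0.749%. Its only peak with an FDR of at most 0.05 lay just past its higher-coordinate boundary (fold 3.48, FDR 0.0323). Col16a1, Col19a1 and Col22a1 had 1, 8 and 8 peaks, none with an FDR of at most 0.05, at 1.19 to 1.41 times the density of their chromosomes. Of the type IX genes, Col9a1 and Col9a2 had no peak. One of the 2 peaks at Col9a3 (chromosome 2, 180598102 to 180622192), and the only one with an FDR of at most 0.05 (0.0323), also lay within 1000 bp of Ogfr.

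Most of the coverage of Col20a1 came from 1 peak at its border with the neighbouring gene Arfgap1. Col20a1 (chromosome 2, 180983323 to 181017545) had 2 peaks in its first 4.39 kb. The longer measured 3596 bp (fold 5.44, FDR 3.69e-06) and lay within 1000 bp of Arfgap1. It reached from -0.438 to 3.16 kb relative to the 5′ boundary in the gene table. The gene start of the promoter window lies further inside that interval, beyond the end of this peak. The other peak, of 941 bp from 3.45 to 4.39 kb (fold 4.26, FDR 0.00159), had no other protein-coding gene within 1000 bp. Arfgap1, on the plus strand, ends upstream of Col20a1, and was itself covered over 6.06%. Without peaks near another protein-coding gene the coverage of Col20a1 was 2.75%. Which of the neighbouring transcripts the Pol II of the longer peak belongs to was not tested.

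Type VI genes of the common trimer had peaks supported at an FDR of at most 0.05, and their paralogues mostly did not. Type VI forms beaded filaments around cells, from chains encoded by Col6a1, Col6a2 and Col6a3. Col6a1 (chromosome 10, 76708792 to 76726044, 17.3 kb) had 4 peaks (0.208 per kb, coverage 7.08%), all in or beyond its last 5 kb. The strongest, of 2290 bp, lay just beyond the 3′ boundary (fold 4.39, FDR 9.67e-05). Col6a2 (chromosome 10, 76595756 to 76623630, 27.9 kb) had 4 peaks (0.134 per kb, 3.09%), of which 1 had an FDR of at most 0.05 (0.0302) and lay 26.2 kb from the 5′ boundary. A further peak, of 553 bp with an FDR of 0.118, lay just beyond the 3′ boundary. Col6a3 (chromosome 1, 90766860 to 90844001, 77.1 kb) had 6 peaks (0.0758 per kb, 2.62%), the strongest at 20.4 kb (fold 4.58, FDR 1.67e-04). In these 3 genes no peak lay within 1000 bp of the 5′ boundary. The paralogues Col6a4, Col6a5 and Col6a6 had 1, 2 and 2 peaks in genes of 107, 106 and 139 kb. Of these 5 peaks 1, in Col6a6 (FDR 0.0120), had an FDR of at most 0.05. Densities of 0.00922 to 0.0185 per kb in the paralogues were below those of Col6a1, Col6a2 and Col6a3.

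Of the short-chain network genes, Col8a2 stood out by a strong peak at its 3′ boundary. Col8a2 (chromosome 4, 126286794 to 126314330, 27.5 kb) encodes a chain of type VIII. It had 4 peaks (0.135 per kb, coverage 5.76%), and the one of 823 bp over its 3′ boundary had the highest fold of any member peak, 6.11 (FDR 1.48e-07). Its partner Col8a1 had 4 peaks in 130 kb (0.0302 per kb), with no FDR of at most 0.05. Col10a1, the collagen of hypertrophic cartilage, had none. Among the transmembrane genes Col25a1 had 8 peaks in 420 kb, Col23a1 4, Col13a1 2 and Col17a1 1. Of these, 2 in Col25a1 (lowest FDR 0.00775) and 1 in Col13a1 (FDR 0.0134) had an FDR of at most 0.05. Col15a1 and Col18a1, which encode basement membrane zone collagens with proteoglycan character, had 1 and 2 peaks with FDR values from 0.0710 to 0.676. Col26a1 had 1 peak (FDR 0.0389). Col7a1, which anchors skin basement membrane, and Col28a1 had none in this list.

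Where the strand was known, gene-end peaks of the whole list were more frequent at 3′ than at 5′ ends of collagen genes. Those with an FDR of at most 0.05 were too few to compare the ends. A peak within 1000 bp of either boundary was found at 12 members (28.6%, 15.7 to 44.6), beside 14.1% of protein-coding genes. With an FDR of at most 0.05 there were 8 (19.0%, 8.60 to 34.1), beside 5.22%: Col5a1, Col5a2, Col8a2, Col6a1, Col12a1, Col14a1, Col9a3 and Col20a1. Of these 8, Col5a2, Col12a1, Col14a1 and Col9a3 had no strand given and could not be assigned to a 5′ or 3′ end. Where the promoter table gave the strand, 3 of 34 members had a peak at the 5′ end (Col3a1, Col5a1 and Col20a1) and 6 at the 3′ end. The end peaks of Col20a1 (5′), Col23a1 (3′) and Col4a6 (3′) also lay within 1000 bp of another protein-coding gene. With an FDR of at most 0.05 there were 2 members at each end. Among the 17491 protein-coding genes with a strand these shares were 5.15% and 11.3%, so the whole list showed the same order outside the collagens. In the 5 kb outside the boundaries the 34 members had 21 peaks beyond the 3′ end, at 9 genes, and 2 before the 5′ end, at 2 genes. Of protein-coding genes with a strand 19.6% had a peak in the 3′ flank and 7.14% in the 5′ flank. The peaks beyond a 3′ end included 5 at Col6a2 and 3 each at Col3a1, Col5a1, Col8a2 and Col23a1. At Col3a1 all 3 had an FDR of at most 0.05, with a highest fold of 4.21. At Col23a1 the flank reaches into the neighbouring gene Phykpl, which was covered over 35.9%.

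The untreated list held 1 peak at these genes. It lay inside Col28a1 (chromosome 6, 7997100 to 8193709, 197 kb), which encodes a type VI-like collagen, and was 212 bp long (fold 3.49, FDR 1). Thus 1 of 42 members had an untreated peak (2.38%, 0.0603 to 12.6), beside 2.3% of protein-coding genes. With an FDR of at most 0.05 there was none (0 of 42), beside 0.133%. No member had a gene-end peak there (0 of 42, 0 to 8.41), beside 0.393%. At Col3a1, Col5a1, Col5a2, Col12a1, Col6a1 and Col6a2 the untreated list had no peak against 9, 19, 21, 23, 4 and 4 in the OSS_128167 list. No member held overlapping peaks of both lists (0 of 42, 0 to 8.41), beside 0.192% of protein-coding genes. With 1694 peaks against 40748, an absent peak in the untreated list is not a measurement of absent Pol II. A weaker recovery in the untreated library and a change with the inhibitor cannot be told apart in this design.

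Among genes that act on collagens, most had little or no coverage, while Sparc and Serpinh1 were covered over a larger share than any of the 42 collagen genes. Of 29 genes of collagen folding, processing and crosslinking 13 had a peak and 4 one with an FDR of at most 0.05, beside 37.8% and 11.5% of protein-coding genes, shares near those of the list. They were led by Serpinh1, which encodes the collagen chaperone HSP47 (coverage 23.3%), P3h1, a prolyl 3-hydroxylase (2.65%), and P4hb, a subunit of prolyl 4-hydroxylase (2.13%). Of 9 collagen receptors 5 had a peak and 1, Ddr2, one with an FDR of at most 0.05, beside the same 37.8% and 11.5%, with Ddr2, a collagen-binding kinase of stromal cells, at 1.82%, Itga11 at 1.42% and Lair1 at 0.460%. Of 16 laminins and other partners of type IV in basement membranes 13 had a peak and 5 one at that FDR, beside 37.8% and 11.5%, with no match for gene length. Sparc, which binds collagen in bone as well as basement membranes, was covered over 34.5%, Nid2 over 3.16% and Lama4 over 2.08%. The medians of these lists were 0%, 0% and 0.346%.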

How the data were processed

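The data are 2 Pol II ChIP-seq peak lists, from 2 of the 4 samples. The other 2 samples are inputs, not analysed here. The submitters' processing notes name fastp and BWA with mm10 as the build. Which program called the peaks, with which thresholds and against which control, is not given in the sources used here. The authors deposited for every peak its interval, a p-value with its FDR, the pileup (a signal height) and the fold over background (a ratio). All of them describe a peak inside its own list. The largest deposited p-value was 0.00999 with and 0.00956 without the inhibitor, so both lists admit weak peaks. They hold no read totals, so depth is unknown.

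Genes, promoter windows and strands came from RefSeq tables of GRCm38.p6, the assembly of mm10, matched by symbol. Coverage is the share of the gene interval under peaks, and density is the number of peaks per kb of the gene with 1000 bp on each side. Gene-end peaks reach within 1000 bp of a boundary. Exact (Clopper-Pearson) 95% intervals cover counting only. Chromosome density was taken between the outermost annotated genes. Counts used Python 3.11.15, numpy 2.4.6, pandas 2.3.3 and scipy 1.17.1, and plots matplotlib 3.10.9. On simulated peaks over 1286 genes of chromosome 2, 40 of 40 planted gene-end peaks were recovered and 0 genes differed from a direct search.

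The members, classes and lists were chosen with earlier results of these data known. Genes given in full were to be those covered over at least 10%, with a gene-end peak at an FDR of at most 0.05, with an untreated peak, or among the 2 densest of a class. Of the related lists the 3 most covered genes are named. The other genes with values, the split at 1% coverage, the 5 kb flanks and the windows of Col5a1, Col4a1 and Col4a2 were added after values were seen.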

Additional observations from a re-analysis of the deposited data

How the results depend on the processing

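The limit on FDR changed most values. With peaks at an FDR of at most 0.05, members with an OSS_128167 peak fell from 36 to 15. Members covered over at least 10% went from 2 to 1, members with an untreated peak from 1 to 0, and the median coverage of all members and of each class, and the median density, to 0. At an FDR of at most 1e-05, 3 members had an OSS_128167 peak and 2 a gene-end peak, and 0 were covered over 10% or had an untreated peak. Gene-end members numbered 7 within 250 bp and 19 within 5000 bp of a boundary, against 12. With 5000 bp around each gene 2 members had an untreated peak. Without peaks near another protein-coding gene, 1 member (Col3a1) was covered over at least 10%. The other 22 of 38 recomputed values stayed within 1.5 times, among them the class medians under the other class definitions tried and the counts by peak centre. Right at that limit were gene-end members, 8 against 12 without peaks near another protein-coding gene. The same 8 against 12 held with an FDR of at most 0.05. No paired analysis was possible because each condition has 1 library.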

Other observations

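Many peaks at the collagen genes, as in the whole list, rested on few fragments. Of the 162 OSS_128167 peaks at members 82 (50.6%) had a deposited pileup of at most 8, beside 56.1% of the whole list. An FDR of at most 0.05 was given for 21.0% of member peaks and 16.1% of the list. The commonest fold in the list, 2.87, was shared by 4328 peaks (10.6%) and by 13 peaks at 12 members. Each of these 13 had a pileup of 7 and an FDR of 0.377. Of the members 12 had exactly 1 peak.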
